A study of Mus musculus with 6 samples.

Results

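The Notch receptors, ligands and targets were followed in NOR-10 cells, a mouse line of skeletal muscle fibroblasts. The group held 10 genes picked by name from the 34745 rows of the deposited table: the receptors Notch1, Notch2, Notch3 and Notch4, the ligands Jag1 and Dll1, and the target genes Hes1, Hey1, Heyl and Nrarp. RNA-seq libraries came from 3 control samples that received PBS and 3 samples that received D-gal (D-galactose, a sugar widely used to model ageing in cells and animals) at 20 mg/mL, each for 3 days. Both groups were the same unmodified line in the same medium with serum, so the comparison rests on 1 line in culture. The labels do not say whether the replicates were separate cultures, and p-values therefore measure the spread between these libraries only.

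Notch receptors are cell surface proteins that are switched on by ligands of the Jagged and Delta-like families on a neighbouring cell. ADAM proteases and then γ-secretase cut the receptor, and the freed intracellular part enters the nucleus and joins the DNA-binding protein RBPJ and a Mastermind co-activator. The HES and HEY genes are classical targets and encode transcriptional repressors, while Nrarp encodes a small protein that dampens the signal. In skeletal muscle the pathway is best known for keeping satellite cells undifferentiated, and in mesenchymal cells it has been linked to fibroblast activation. Notch3 is typical of mural cells and Notch4 of endothelium.

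The promoters of Notch1, Notch2 and Notch3 are printed because these 3 genes carry the differences between the groups reported here. Each sequence is the 250 bases before the annotated transcription start in RefSeq on GRCm38.p6, 5′ to 3′ on the strand of the gene, and capitals mark the letters GGGCGG (a GC box) on either strand. The Notch1 window is chr2:26503823-26504072 on the minus strand, the Notch2 window chr3:98013288-98013537 on the plus strand, and the Notch3 window chr17:32166891-32167140 on the minus strand.

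Notch1: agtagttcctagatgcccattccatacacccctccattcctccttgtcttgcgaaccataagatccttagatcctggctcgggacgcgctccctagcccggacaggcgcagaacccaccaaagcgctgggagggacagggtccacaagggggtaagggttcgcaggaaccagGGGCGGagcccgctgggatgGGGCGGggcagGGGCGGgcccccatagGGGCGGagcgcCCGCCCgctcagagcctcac

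Notch2: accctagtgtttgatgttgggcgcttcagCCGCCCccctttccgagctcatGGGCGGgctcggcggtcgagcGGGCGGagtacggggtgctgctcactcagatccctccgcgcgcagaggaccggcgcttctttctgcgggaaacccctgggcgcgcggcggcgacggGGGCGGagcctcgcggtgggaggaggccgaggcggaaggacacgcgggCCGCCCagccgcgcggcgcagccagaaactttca

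Notch3: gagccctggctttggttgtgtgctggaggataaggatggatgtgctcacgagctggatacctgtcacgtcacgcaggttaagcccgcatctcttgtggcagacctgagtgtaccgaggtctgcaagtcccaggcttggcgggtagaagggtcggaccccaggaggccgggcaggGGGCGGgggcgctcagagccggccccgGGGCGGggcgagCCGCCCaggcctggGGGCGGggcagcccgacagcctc

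The Notch1 window held 5 GC boxes, Notch2 5 and Notch3 4. At least 1 was present in 32.7% of all 32851 windows of this length. The number of boxes per window was not compared with that of all windows. The Notch1, Notch2 and Notch3 windows were also rich in G and C, at 66.0%, 72.0% and 68.8%. The median of all windows was 52.4%. Windows were found for 7 of the 10 genes, 8 windows in all since Dll1 has a pair, and not for Hes1, Hey1 and Heyl. The RBPJ core letters TGGGAA were in 0 of the 8 windows and in 21.6% of all windows, searched on both strands. The E-box letters CACGNG bound by HES and HEY proteins were in the windows of Notch2, Notch3, Jag1, Dll1 and Nrarp (23.5% of all windows). The N-box letters CACNAG were in those of Notch1, Notch2, Notch3 and Nrarp (36.7% of all windows), and 1 stretch of the Notch3 window, 204 to 199 bases before the start, matched both searches. The letters searched were chosen after the levels of the genes were known, and a match is a description, not a binding site.

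Library totals lay between 16876087 and 20830349 counts in the control group and between 13759108 and 15157064 in the D-gal group, so every D-gal library was shallower. Mitochondrial genes held 4.26% to 4.44% of the counts in control and 4.87% to 4.98% in D-gal libraries. Of 8 fibroblast markers, 6 passed the filter on low counts, 5 fell (Col1a1, Col1a2, Col3a1, Dcn and Thy1) and 0 rose, while Lum and Fap had at most 5 counts in any library. Summed fibroblast markers lay between 5421 and 5581 CPM (counts scaled to a common library size) in control and between 3212 and 3415 in D-gal libraries. The myogenic markers Myod1, Myf5 and Pax7 had 0 counts in every library, and Des, the 1 myogenic marker tested, fell. The endothelial markers Cdh5, Emcn and Tie1 had at most 2, and Tek fell among 3 tested. Summed endothelial markers lay between 4.52 and 5.40 CPM in control and between 3.09 and 3.38 in D-gal libraries. Mural markers summed to 21.1 to 23.9 CPM with PBS and 19.1 to 20.7 with D-gal. Of 2 macrophage markers tested 0 were called by edgeR (0 also at an unadjusted p under 0.05). Macrophage markers summed to 18.0 CPM in control replicate 1, to 7.15 and 4.69 in the other controls and to between 4.61 and 5.60 in D-gal libraries. The part of depth, of the mitochondrial share and of these markers in the results was not tested, apart from the values given for thinned counts and for single libraries left out.

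The make-up of the receptors differed between the groups. Notch1 fell to 0.423 of its control level, Notch2 fell slightly and Notch3 rose, while none of the ligands and targets passed the test. Of the 10 genes, 6 had enough counts to be tested with edgeR (Notch1, Notch2, Notch3, Jag1, Dll1 and Hes1), and each of these had at least 25 counts in every library of both groups. At an adjusted p-value under 0.05, 1 of the 6 was higher, where 16.9% of all 13407 genes tested were, and 2 were lower, where 17.8% were. Together 3 of 6 (50%) were called, against 34.8% of all genes tested. With the added criterion of a log2 fold change of size 1 or more, 1 gene, Notch1, was differentially expressed, against 4.21% of all genes. The groups did not overlap in 4 of the 6, where this held for 49.1% of all genes. The median log2 fold change of the 6 was 0.28, and that of all genes tested 0.0036. Without control replicate 1, the library with the highest macrophage markers, the same count of 3 was called, 1 higher and 2 lower. In that fit 3711 of all genes were called, against 4661 with no library left out.

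Notch1 (ENSMUSG00000026923), a receptor that is present in most cell types, lies on the minus strand of chromosome 2 from 26457903 to 26516663 on GRCm38, and its longest coding transcript has 34 exons. It was counted 881, 994 and 765 times in control and 329, 265 and 279 times in D-gal libraries. Scaled to depth, control libraries had 46.7 ± 1.42 CPM (SD, n = 3) and D-gal libraries 19.8 ± 2.39 CPM (SD, n = 3). All D-gal libraries were far below all control libraries, with the control values within a narrow band. The log2 fold change was -1.24 (SE 0.09, 95% interval -1.45 to -1.04, adjusted p = 4.67e-05, quasi-likelihood test of edgeR), a level 2.37-fold lower. By p-value Notch1 was number 207 of the 13407 genes tested. When single libraries were removed it ranged from -1.33 to -1.15, and with counts thinned to the smallest library it was -1.23. In bulk RNA, fewer cells that express a gene and less of its RNA per cell cannot be told apart.

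Notch2 (ENSMUSG00000027878, chromosome 3, 98013527 to 98150361, plus strand), the most abundant receptor in these cells, was counted 3749, 4237 and 3138 times in control and 2464, 2604 and 2423 times in D-gal libraries. After scaling to depth these were 197 ± 8.74 CPM (SD, n = 3) and 169 ± 4.6 CPM (SD, n = 3). The groups did not overlap, but the difference was small. Its log2 fold change was -0.21 (SE 0.04, 95% interval -0.31 to -0.12, adjusted p = 0.00603, same edgeR test), a level of 0.862 of the control.

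Notch3 (ENSMUSG00000038146, chromosome 17, 32120820 to 32166880, minus strand) moved the other way. It was counted 912, 932 and 753 times in control and 955, 1160 and 955 times in D-gal libraries, which were shallower. In CPM the controls were at 46.0 ± 1.18 (SD, n = 3) and the D-gal libraries at 69.3 ± 5.84 (SD, n = 3), and the lowest D-gal library (63.9) was above the highest control library (47.4). The log2 fold change was 0.59 (SE 0.07, 95% interval 0.44 to 0.75, adjusted p = 4.05e-04, same edgeR test), a 1.51-fold rise. Of the mural markers tested, Rgs5 had a log2 fold change of -1.06 and Mcam of 0.43, both past the threshold, and their part in the Notch3 result was not tested.

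Notch4 (ENSMUSG00000015468, chromosome 17, 34564268 to 34588503, plus strand) was near the limit of detection. It was counted 5, 4 and 2 times in control and 11, 0 and 8 times in D-gal libraries, so the groups overlapped and the gene was not tested. For Notch1, Notch2 and Notch3 the exact permutation test of the libraries, two-sided, gave p = 0.1, the smallest p that 3 against 3 allows, and for Notch4 it gave p = 0.7.

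Genes annotated across the same bases had few counts. The genes on the other strand of Notch1 and Notch3 had at most 12 counts in any library, and Gm42820 on the strand of Notch2 had at most 20. Of the words of 31 bases in these receptors, 0.0352% of Notch1, 0% of Notch2 and 1.51% of Notch3 occur in genes elsewhere in the genome. With overlapping genes included, the shares found in other genes were 9.40%, 4.28% and 6.59%. On the other strand, Gm38287 covers 2051 of the 2582 exon bases of Nrarp and had 0 counts in every library, and A930024N18Rik covers 867 bases of Dll1 and had at most 2. The part of these overlaps in the counts of Notch1, Notch2, Notch3, Nrarp and Dll1 was not tested. Whether the counting used the strand, and how it treated reads on overlapping genes, is not given in the sources used here.

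**Figure D1:**
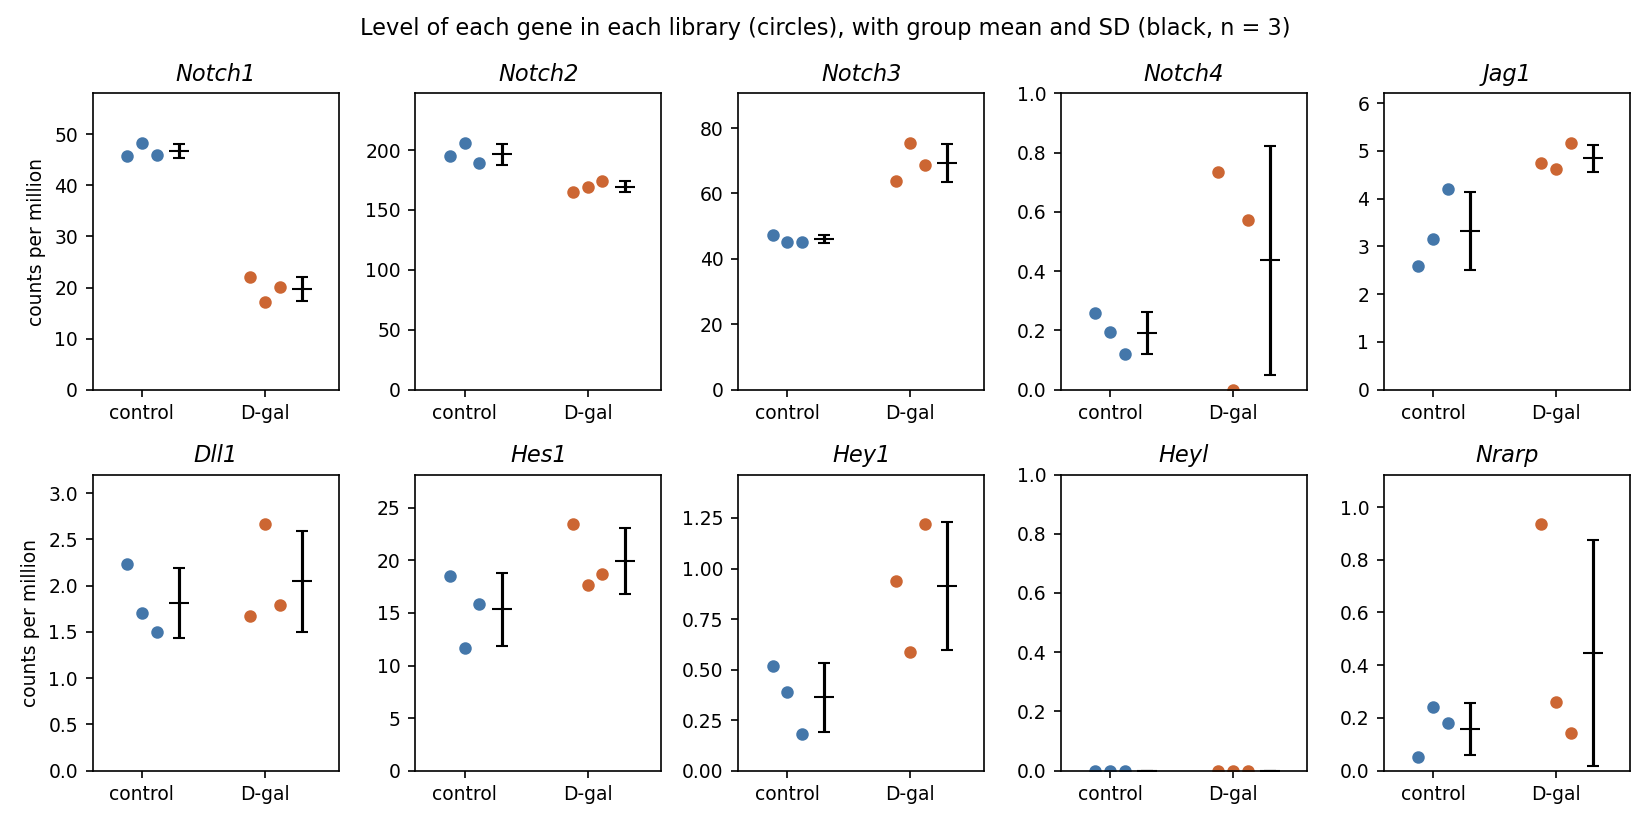
Level of the 10 genes in each library in CPM (y axes, from 0, a scale of its own in each panel), control (blue) and D-gal (orange), with the mean and SD of 3 libraries in black. Notch1 is lower in all D-gal libraries, Notch3 is higher in all of them, Notch2 is slightly lower, and Heyl is at 0 throughout.

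A ratio of receptors within a library does not depend on the scaling to depth. Notch3 and Notch1 had nearly equal counts in the control group, with a ratio of 1.04, 0.938 and 0.984 counts of Notch3 per count of Notch1. In the D-gal group the ratio was 2.90, 4.38 and 3.42, a mean 3.62-fold higher (0.986 ± 0.0488 against 3.57 ± 0.748, SD, n = 3). The groups were far apart (two-sided exact permutation test of the log2 ratio, p = 0.1, the smallest p possible). The ratio of Notch2 to Notch1 counts went from 4.21 ± 0.0907 to 8.67 ± 1.17 (SD, n = 3), and that of Notch3 to Notch2 from 0.234 ± 0.0126 to 0.409 ± 0.0317 (SD, n = 3), each with p = 0.1 in the exact permutation test.

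To compare receptors with each other, counts were divided by the summed length of the distinct exons of each gene. On this scale Notch2 made up 66.4% to 67.9% of the receptor transcripts with PBS and 59.9% to 61.8% with D-gal. The Notch3 share was 19.9% to 21.6% in control and 31.8% to 35.5% in D-gal libraries. Notch1 supplied 11.8% to 12.3% in control and 4.61% to 6.23% in D-gal libraries, and Notch4 at most 0.368% in any library. The summed level of the 4 receptors was 27.2 ± 0.884 CPM per kb (SD, n = 3) with PBS and 25.7 ± 0.790 (SD, n = 3) with D-gal, and the highest D-gal library (26.3) was just below the lowest control library (26.4). Transcripts other than the longest coding one add to the Notch1 length, and with the length of the longest coding transcript its mean share was 16.7% in control and 7.75% in D-gal instead of 12.1% and 5.41%.

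**Figure D2:**
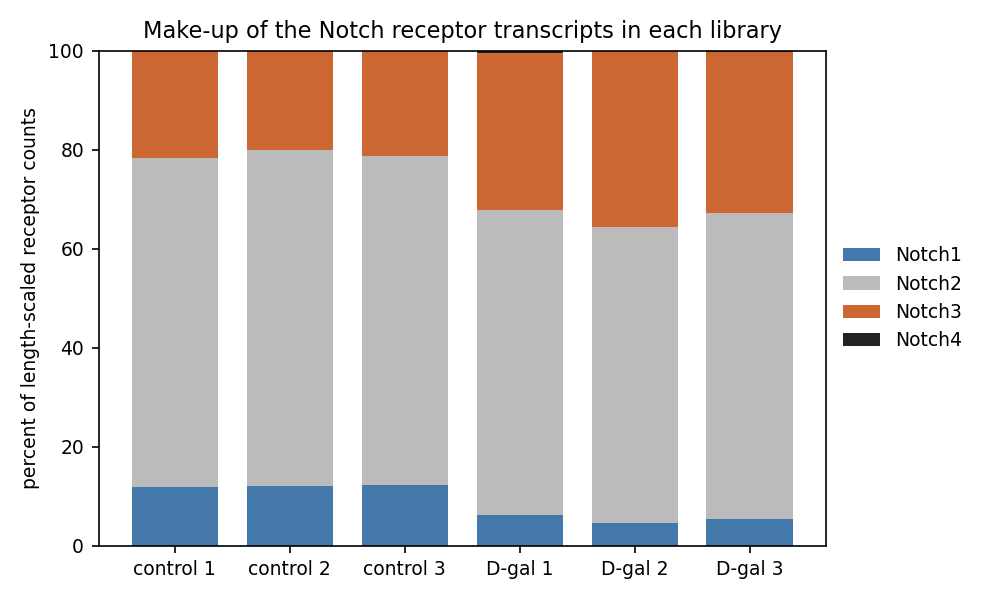
Share of each receptor in the length-scaled receptor counts of each library (y axis in percent, 1 bar per library, Notch1 in blue, Notch2 in grey, Notch3 in orange and Notch4 in black). In the D-gal libraries the Notch1 part is smaller (4.61% to 6.23%) and the Notch3 part larger (31.8% to 35.5%) than in any control library.

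Over all 10 genes the order of the mean levels per kb of exon was the same in both groups. It ran from Notch2 (18.2 CPM per kb in control, 15.7 in D-gal) to Hes1 (7.53 and 9.78), Notch3 (5.69 and 8.57), Notch1 (3.28 and 1.39), Jag1 (0.570 and 0.832), Dll1 (0.430 and 0.485), Hey1 (0.111 and 0.280), Nrarp (0.0614 and 0.173), Notch4 (0.0238 and 0.0542) and Heyl (0). The libraries of Hes1 and Notch3 overlapped in both groups, as did those of Hey1 and Nrarp and those of Nrarp and Notch4. Jag1 and Dll1 overlapped in the control group only. With the length of the longest coding transcript, Hes1 no longer overlapped Notch3 (at least 7.92 against at most 5.91 CPM per kb in control, and 12.01 against 9.42 in D-gal), while its highest D-gal library (15.99) lay above the lowest of Notch2 (15.69). On either length, every library of Notch1, Notch2 and Notch3 was above every library of Jag1 and Dll1 in its group. The order of Hes1 and Notch3 depended on the length used. In the deposited FPKM values, which the authors scaled by gene length and depth, mean Hes1 was 5.30 in control and 7.04 in D-gal. Mean Notch3 FPKM was higher, at 5.65 and 8.71.

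Neither ligand passed the test. Jag1 (ENSMUSG00000027276, chromosome 2, 137081456 to 137116644, minus strand), which encodes Jagged1, was counted 50, 65 and 70 times in control and 71, 71 and 72 times in D-gal libraries. These were 3.32 ± 0.820 CPM (SD, n = 3) and 4.85 ± 0.288 CPM (SD, n = 3), and the groups did not overlap. Its log2 fold change of 0.55 (SE 0.19, 95% interval 0.10 to 0.999) had an unadjusted p of 0.0221 and an adjusted p of 0.0599 in edgeR's test. Control replicate 3 decided the call, since without it the log2 fold change was 0.75 and the adjusted p 0.0217, and over all libraries left out in turn the adjusted p lay between 0.0217 and 0.153.

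Dll1 (ENSMUSG00000014773, chromosome 17, 15367354 to 15376872, minus strand), the Delta-like ligand 1, was counted 43, 35 and 25 times in control and 25, 41 and 25 times in D-gal libraries. The groups overlapped at 1.81 ± 0.377 CPM (SD, n = 3) and 2.05 ± 0.543 CPM (SD, n = 3). The log2 fold change was 0.17 with a 95% interval from -0.44 to 0.78 (adjusted p = 0.658 in edgeR), so a fall or a rise within that interval is not excluded. Without D-gal replicate 2 the log2 fold change was -0.07. The number of Jag1 counts per Dll1 count varied as much within groups (1.16 to 2.80 in control, 1.73 to 2.88 in D-gal) as between them (exact permutation test, p = 0.5).

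Among the targets, Hes1 (ENSMUSG00000022528, chromosome 16, 30064384 to 30067796, plus strand) was the only gene with an appreciable level. It was counted 357, 239 and 264 times in control and 351, 271 and 260 times in D-gal libraries, or 15.4 ± 3.49 CPM (SD, n = 3) and 19.9 ± 3.12 CPM (SD, n = 3). Control replicate 1 (18.5 CPM) lay above the lowest D-gal library (17.6 CPM), so the groups overlapped. The log2 fold change of 0.38 (SE 0.18, 95% interval -0.04 to 0.79) did not pass the test (adjusted p = 0.142 in edgeR). With each library left out in turn it lay between 0.21 and 0.54 and the adjusted p between 0.0616 and 0.374. A rise of up to 0.79 on the log2 scale is within the interval of these data.

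Hey1 (ENSMUSG00000040289, chromosome 3, 8663359 to 8667256, minus strand), a repressor related to HES1, was counted 10, 8 and 3 times in control and 14, 9 and 17 times in D-gal libraries. Every D-gal library was above every control library (at least 0.586 against at most 0.519 CPM), with p = 0.1 in the exact permutation test, but the gene was below the filter on low counts. Fitted without that filter, its log2 fold change was 1.28 with an adjusted p of 0.107 in edgeR. Nrarp (ENSMUSG00000078202, chromosome 2, 25180758 to 25183339, plus strand) was counted 1, 5 and 3 times in control and 14, 4 and 2 times in D-gal libraries, so that D-gal replicate 1 held most of the difference (exact permutation test, p = 0.4). Heyl (ENSMUSG00000032744, chromosome 4, 123233556 to 123249875, plus strand) had 0 counts in every library, which allows up to 3 counts or 0.146 to 0.215 CPM, by counting error alone.

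The 3 genes whose log2 CPM over the 6 libraries was most like that of Notch1, the member with the smallest p, were Cd248 (Pearson's r = 0.9995), Thbs2 (0.9994) and Thy1 (0.9994), among 10344 genes outside the pathway lists with a mean of at least 100 counts. Cd248, a surface protein of stromal cells also called endosialin, went from a mean of 188 to 82.9 CPM. Thbs2, which encodes thrombospondin 2, went from 2230 to 1428 CPM, and Thy1, a marker of fibroblasts, from 264 to 168 CPM. These correlations rest mainly on the difference between the groups, which all of these genes share, and are a description of 6 libraries.

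Other genes of the pathway were taken from 8 lists written from general knowledge, when earlier results of these data were known. The called shares of these lists are therefore descriptions and not a test of the pathway. Of their 89 symbols 87 were in the table and 74 were tested. Poglut2 and Poglut3 were not in the table under these symbols, but their older symbols Kdelc1 and Kdelc2 were. With D-gal 19 rose and 17 fell past the threshold (48.6%, against 34.8% of all genes tested), with a median log2 fold change of 0.05. Of the 74, 3 passed with a log2 fold change of size 1 or more: Gata3 was higher, and Dlk1 and Sox9 were lower. Among the list genes described below, other annotated genes overlap Dlk2, Dll4, Kdelc2, Ncstn, Furin, Tle2, Maml1, Hes5, Hes7 and Ccnd1 on the other strand. Neurl1a, Numbl and Maml2 are overlapped on their own strand. The part of these overlaps in the counts was not tested.

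In the nucleus, the DNA-binding partner of all Notch receptors rose. Rbpj was counted 6824, 7584 and 5792 times in control and 7523, 7895 and 7156 times in D-gal libraries. These were 357 ± 10.4 CPM (SD, n = 3) and 510.2 ± 6.17 CPM (SD, n = 3), with all D-gal libraries above all controls. The log2 fold change was 0.51 (SE 0.03, edgeR adjusted p = 2.12e-05), and 11.8% of its words of 31 bases occur in genes elsewhere, so its counts may include reads of related sequences. Maml3, a Mastermind co-activator, fell by 0.91 on the log2 scale (19.7 ± 1.28 against 10.5 ± 0.896 CPM, SD, n = 3, adjusted p = 3.15e-04). Maml1 (log2 fold change 95% interval -0.23 to -0.03) and Maml2 (0.01 to 0.39) did not pass the adjusted threshold. Tle2, a co-repressor of the Groucho family that HES proteins recruit, fell by 0.63 (adjusted p = 6.92e-04). Of the 23 genes of this list tested, 4 rose, 5 fell and 14 did not pass. Called were 39.1%, against 34.8% of all genes, and the median log2 fold change was -5e-04.

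Among ligands outside the group, the activating ligands Jag2, Dll3 and Dll4 had at most 18 counts in any library and were not tested. Dlk1, a membrane protein related to Delta that lacks the domain by which activating ligands bind, was counted 15310, 12420 and 12833 times in control and 4898, 4186 and 5467 times in D-gal libraries. It went from 724 ± 104 CPM (SD, n = 3) to 331 ± 60.1 CPM (SD, n = 3), a log2 fold change of -1.13 (SE 0.14, edgeR adjusted p = 6.63e-04). Its relative Dlk2 was at 11.6 ± 0.805 and 14.3 ± 0.627 CPM (SD, n = 3), a log2 fold change of 0.30 (adjusted p = 0.039) that passed in 5 of 13 alternatives. Of the 3 non-canonical ligands tested, 1 rose, 1 fell and 1 did not pass (66.7% called, against 34.8% of all genes).

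Genes of receptor glycosylation and maturation, enzymes that add sugars to the EGF repeats and the protease Furin, moved in both directions. Of 11 tested, 2 rose (Poglut1 and Furin), 4 fell (Gxylt2, Gxylt1, Lfng and Kdelc2) and 5 did not pass. Called were 54.55%, against 34.8% of all genes, and the median log2 fold change was -0.02. The xylosyltransferases Gxylt2 and Gxylt1, which extend O-glucose, fell by 0.63 (adjusted p = 2.63e-04) and 0.39 (adjusted p = 3.50e-04) on the log2 scale. Furin, which cuts the receptor precursor, had a log2 fold change of 0.42 (adjusted p = 0.0162). Poglut1, which attaches that O-glucose, rose by 0.33 (adjusted p = 9.24e-04). Lfng, at a mean of 6.63 CPM in control and 4.05 in D-gal, had a log2 fold change of -0.71 (adjusted p = 0.0343). That of Kdelc2 was -0.21 (adjusted p = 0.0117, all from edgeR).

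Of 9 cleavage enzymes tested, 3 rose, 1 fell and 5 did not pass. Called were 44.4%, against 34.8% of all genes, and the median log2 fold change was 0.19. Among the γ-secretase subunits, Psen2 went from 10.2 ± 0.403 to 14.9 ± 1.68 CPM (SD, n = 3, log2 fold change 0.54, adjusted p = 0.00605). Aph1b rose by 0.46 (adjusted p = 0.0105), but 24.8% of its words of 31 bases occur in genes elsewhere, so its counts are uncertain. Ncstn, which encodes nicastrin, fell by 0.24 (adjusted p = 0.00853). The protease Adam10 had a log2 fold change of -0.18 with a 95% interval from -0.68 to 0.31.

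Of 14 ubiquitin ligases and endocytic regulators of ligand or receptor tested, 2 rose, 2 fell and 10 did not pass (28.6% called, against 34.8% of all genes, median log2 fold change 0.15). Neurl1a, a ligase of the Neuralized family, had a log2 fold change of -0.90 (edgeR adjusted p = 0.0162), which went to an adjusted p of 0.0504 without control replicate 2. Fbxw7, which marks the intracellular Notch fragment for degradation, had a log2 fold change of 0.37 (adjusted p = 0.0354), and Numbl, a relative of the Notch inhibitor Numb, had -0.24 (adjusted p = 0.0381). Fbxw7 and Numbl each lost the call in 6 of 13 alternatives, among them the removal of any control library and of D-gal replicate 2, and Fbxw7 also without D-gal replicate 3.

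Apart from Hes6, HES and HEY repressors outside the group were scarce. Hes3, Hes5 and Helt had 0 counts in every library, and Hes2 and Hes7 had at most 7. Hey2 was counted 26, 14 and 28 times in control and 30, 42 and 33 times in D-gal libraries (adjusted p = 0.0547 in edgeR). Hes6, which encodes a family member known to oppose HES1, was at 11.4 ± 0.653 and 14.1 ± 1.09 CPM (SD, n = 3), with an adjusted p of 0.041 that passed in only 4 of 13 alternatives.

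Of 12 other genes that are known as Notch targets in some cell types, 6 rose, 4 fell and 2 did not pass. Called were 83.3%, against 34.8% of all genes, and the median log2 fold change was 0.22. Each of the 12 has other regulators too. Sox9, a transcription factor of cartilage and fibroblasts, was counted 2304, 2431 and 1852 times in control and 757, 726 and 675 times in D-gal libraries. It fell from 116 ± 4.38 to 48.8 ± 1.71 CPM (SD, n = 3, log2 fold change -1.26, edgeR adjusted p = 3.32e-06). Ccnd1, which encodes cyclin D1, fell by 0.73 (adjusted p = 4.87e-05). Acta2, the smooth muscle actin of myofibroblasts, went from 2219 ± 59.1 to 3059 ± 167 CPM (SD, n = 3, log2 fold change 0.46, adjusted p = 1.18e-04). Efnb2, which encodes ephrin B2, rose by 0.34 (adjusted p = 9.82e-04). Gata3 was low, counted 24, 31 and 25 times in control and 49, 36 and 50 times in D-gal libraries (log2 fold change 1.11, adjusted p = 0.00729), and other annotated genes overlap it on both strands. 

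**Figure D3:**
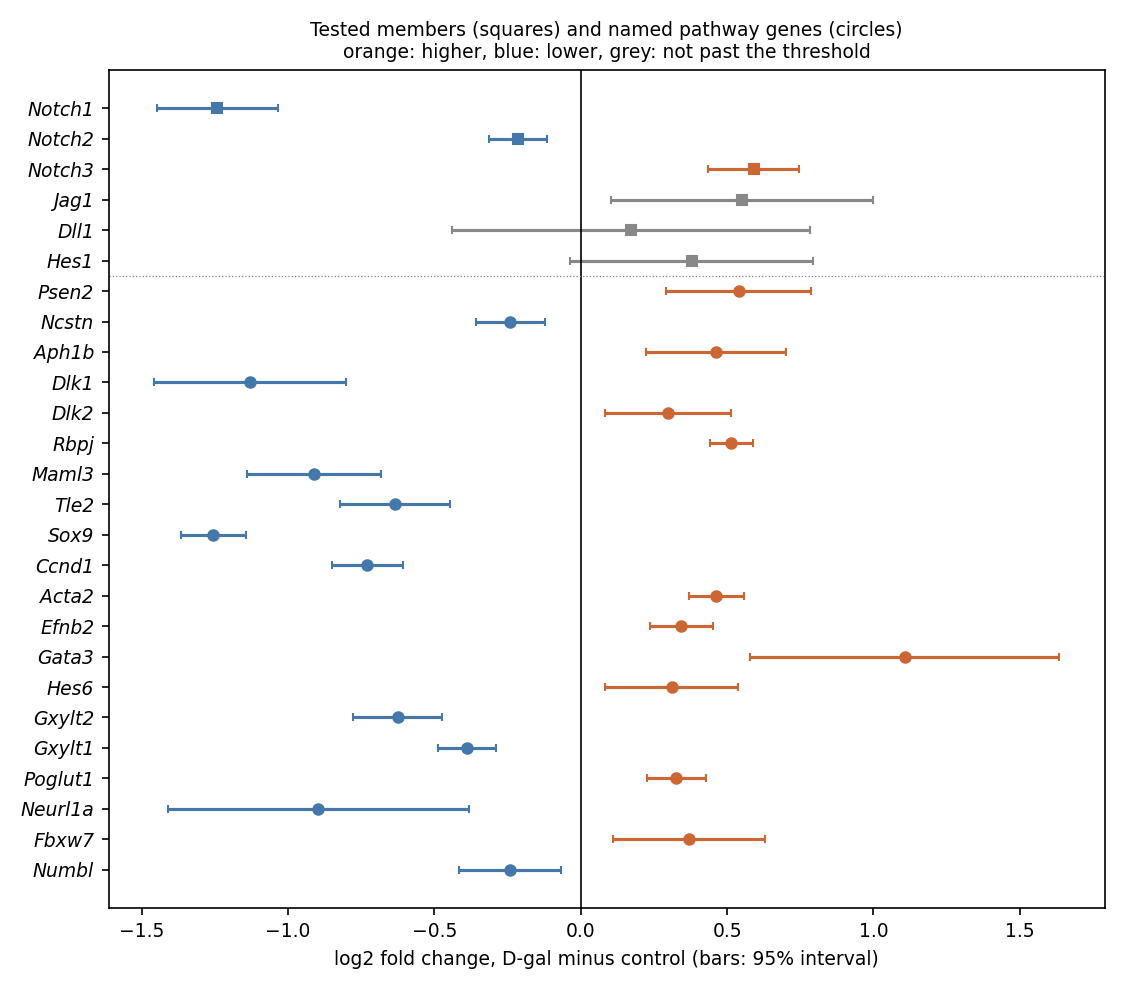
Log2 fold change of D-gal against control (x axis) with its 95% interval for the 6 tested genes of the group (squares, above the dotted line) and the named genes of the lists (circles), orange for higher, blue for lower and grey for genes not past the threshold. Notch1, Dlk1 and Sox9 have log2 fold changes below -1, and Jag1, Dll1 and Hes1 are grey.

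**Figure D4:**
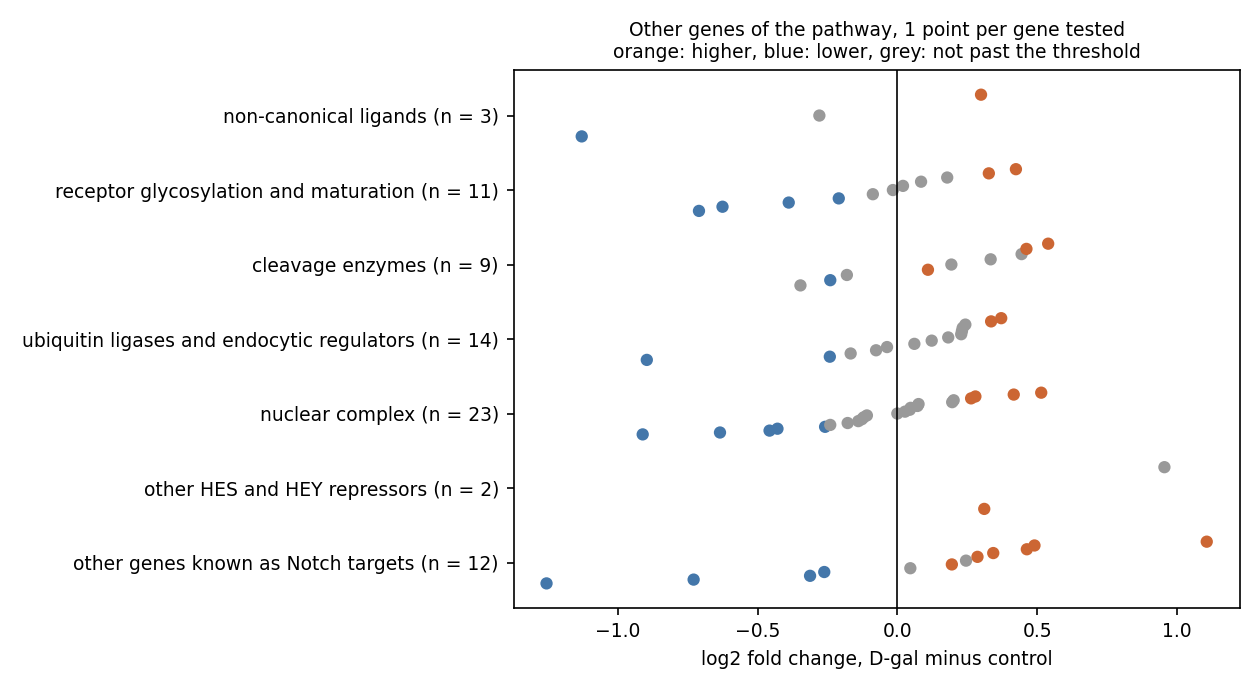
Log2 fold change (x axis) of every tested gene of the lists, 1 point per gene, in rows by list and sorted within a row, with colours for higher (orange), lower (blue) and not called (grey). Points lie on both sides of 0 in each list except the other HES and HEY repressors, and most lie between -1 and 1.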

How the data were processed

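The measurements were RNA-seq libraries of NOR-10 cells, 3 control and 3 D-gal. Groups came from the sample titles, and dose and duration from the study's methods. The authors trimmed reads with Trimmomatic, and the submitters' processing notes name HISAT2 (version 2.0.4), an aligner. The counting tool, genome build, annotation and strand setting are not given in the sources used here. The deposited table gives a raw count of reads per gene and an FPKM value, which the authors scaled by gene length and depth. Each column of values was assigned to its sample by name.

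Counts were tested with edgeR (version 4.0.16, R 4.3.3) using the quasi-likelihood test after filterByExpr and TMM scaling, 3 against 3 with no covariate, with Benjamini-Hochberg adjustment over 13407 genes at 0.05. The study's criterion of a log2 fold change of size 1 or more was added where stated. CPM are counts scaled to a common total by the TMM-scaled library size. For standard errors (SE), the size of the log2 fold change was divided by √F. Single values were compared by an exact permutation test of log2(CPM + 0.1), or of the log2 ratio, over the libraries. Gene positions in the table are those of GRCm38. Exon lengths and overlaps are from GENCODE M21 (GRCm38), which has 34344 of the 34745 gene identifiers, and promoters from RefSeq.

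The members and lists were chosen with earlier results of these data known. Named from each list were genes with a log2 fold change of size 1 or more. Beyond these, the 3 called genes with the smallest p were named. Maml1, Maml2, Adam10, Hey2, Furin, Lfng and Kdelc2 were added after their values were seen. The fit was tested on simulated data over 13276 genes with 200 changed ones: 47 of 50 genes with a log2 fold change of -1 and 48 of 50 with 1 were recovered. Every simulated gene had the same spread between replicates, and genes of the lowest levels were not changed. The recovery therefore does not carry over to genes with few counts or a wider spread.

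Alternatives were RLE size factors, DESeq2 (version 1.42.0), no filter, a minimum of 10 counts per library, a replicate block, limma (version 3.58.1) on log2(FPKM + 1), counts thinned to the smallest library, an adjusted p under 0.01 and each library left out. Tallies over 13 alternatives leave out the adjusted p under 0.01. The length of the longest coding transcript was added after the data had been seen. Replicates differed by more than sampling noise (6.00 to 9.42 chi-square units per degree of freedom).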

Additional observations from a re-analysis of the deposited data

How the results depend on the processing

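Notch1, Notch2 and Notch3 kept their direction and their call in all 13 alternatives, with log2 fold changes from -1.33 to -0.79, from -0.24 to -0.17 and from 0.53 to 0.65. The smallest size for Notch1 was on log2(FPKM + 1), a scale that understates low genes, where 0 of the group and 119 of all genes were differentially expressed. At an adjusted p under 0.01, 2729 of all genes and 22 genes of the pathway lists (10 higher and 12 lower) were called, by construction fewer. The replicate number as a block called 4 of the group, 29 pathway genes and 3982 of all genes. The fourth of the group was Hes1 (log2 fold change 0.39, adjusted p = 0.0335 in edgeR). The numbers did not pair the libraries (correlations of same-numbered deviations from -0.0114 to 0.0277), and the cause was not tested. Leaving out each library, the group had 3 to 4 called genes, the pathway lists 26 to 34, and all genes 3651 to 4009, of which 491 to 572 were differentially expressed. Jag1 was called on log2(FPKM + 1) (0.22, adjusted p = 0.0414) and without control replicate 3. Dll1, never called, ranged from -0.0696 (without D-gal replicate 2) to 0.35 (without control replicate 1) over single libraries left out, and was 0.39 with thinned counts. With the longest coding transcript as length, the mean share of Notch2 was 63.6% in control and 59.9% in D-gal, and that of Notch3 19.5% and 32.1%. Notch4 and Nrarp, fitted without the filter, had adjusted p-values of 0.461 and 0.295. Genes with few counts in a library (Notch4, Hey1, Nrarp, Dll1 and Jag1) are limited by depth, and genes on the other strand overlap Nrarp and Dll1.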
